A study of Homo sapiens with 10 samples.

Results

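The genes described here are 42 that encode the tricarboxylic acid (TCA) cycle, the pyruvate dehydrogenase complex that feeds it, and the enzymes that break down the branched-chain amino acids (AAs) leucine, isoleucine and valine. They were taken by symbol, not by measured values, from a table of 60671 genes. Of the 42, 23 belong to the TCA cycle and pyruvate dehydrogenase and 19 to branched-chain breakdown, and each symbol matched a single gene. All 23 TCA and pyruvate dehydrogenase genes and 18 of the 19 branched-chain genes reached the minimum level for testing. BCKDHA did not.

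In the TCA cycle, acetyl groups from pyruvate, fatty acids and some AAs join oxaloacetate to form citrate and are oxidized step by step, and the electrons released drive mitochondrial ATP production. Glutamine enters the cycle through glutamate as alpha-ketoglutarate, a route that proliferating tumour cells are known for using. Branched-chain AAs are first transaminated, which forms glutamate from alpha-ketoglutarate, then decarboxylated by a mitochondrial complex built like pyruvate dehydrogenase, and finally oxidized along separate routes to acetyl-CoA, acetoacetate or the TCA intermediate succinyl-CoA.

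The cells were U2OS, an established human osteosarcoma line. Ars cells, in 3 libraries, were grown in low-glucose medium with serum and received arsenite, an oxidative stressor that induces stress granules, for 50 min. Starved cells (EBSS+VBL+Ars, 3 libraries) were kept for 18 h in EBSS, a balanced salt solution with glucose and without AAs or serum, together with VBL (vinblastine, which disrupts microtubules), and then received arsenite. Glutamine-recovered cells (EBSS+VBL+Gln+Ars, 3 libraries) had glutamine added to the EBSS and VBL. A single library came from untreated cells. All 3 replicated groups carry arsenite, and in the starved group the loss of AAs, the loss of serum and VBL cannot be told apart. Whether the libraries of a group stem from separate cultures is not stated, and p-values refer to the spread among these libraries alone, which may be technical.

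Each library held 3538017 to 7019842 reads counted on genes, of which 7.88 to 20.2% fell on RN7SL1, an abundant small cytoplasmic RNA. Mitochondrially encoded genes took 1.08 to 1.86%. Of the bone lineage markers given here, RUNX2 (77.0 to 181 normalized counts), SPARC (2040 to 5218) and COL1A1 (4032 to 11094) were present in every library, whereas IBSP was listed at 0 throughout and SP7 and BGLAP were at most at 1.10. COL1A2 lay between 0 and 11.9. Blood cell markers did not exceed 2.25 normalized counts.

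Levels are normalized counts, that is, reads counted per gene divided by a size factor of the library. Differences are log2 fold changes of (normalized count + 1) with their standard error (SE), which understates the change of low genes. They were tested with limma over the 12971 genes whose mean reached 10 normalized counts in the 9 replicated libraries. A gene was called higher or lower at a Benjamini-Hochberg adjusted p under 0.05 over all genes tested and a change of at least 1.5-fold. RNA came from bulk cultures, in which fewer cells expressing a gene and less RNA of it per cell cannot be told apart.

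More members were called lower than higher in starved against Ars cells. Of the 23 TCA and pyruvate dehydrogenase genes, 7 (30.4%) were lower and 0 were higher. Among the 18 branched-chain genes tested, 10 (55.6%) were lower and 2 (11.1%) were higher. For all genes tested, limma called 21.3% lower and 21.5% higher. The median log2 fold change was -0.31 for TCA and pyruvate dehydrogenase genes, -0.60 for branched-chain genes and 0.02 for all genes. With glutamine, 5 TCA genes (21.7%) and 7 branched-chain genes (38.9%) were higher than in starved cells and 0 of either were lower, against 8.45% of all genes higher and 8.52% lower. Median log2 fold changes with glutamine were 0.39, 0.70 and 0.00 in the same order. Both comparisons use the same 3 EBSS+VBL+Ars libraries, so they are not independent.

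**Figure D1:**
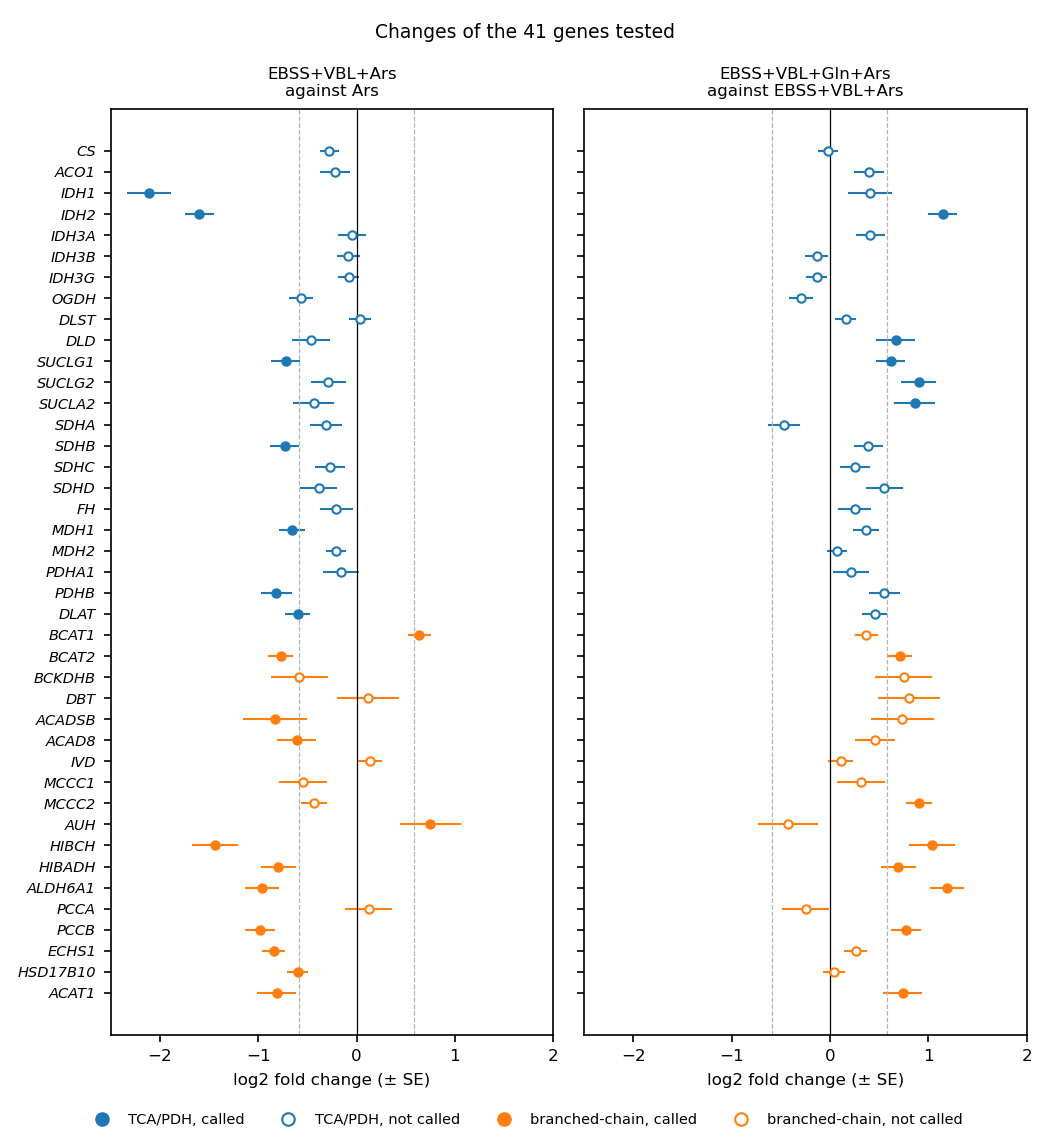
Log2 fold change (± SE, limma) of the 41 genes tested, for EBSS+VBL+Ars against Ars on the left and EBSS+VBL+Gln+Ars against EBSS+VBL+Ars on the right. Blue points are TCA and pyruvate dehydrogenase genes, orange points branched-chain genes, filled points are called, and dashed lines mark a 1.5-fold change. IDH1 (-2.11) and IDH2 (-1.60) lie farthest to the left with starvation, and ALDH6A1 (1.19) and IDH2 (1.15) farthest to the right with glutamine.

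The promoters of 38 of the 42 genes could be read from RefSeq on GRCh38.p14, as 250 bases before and 50 bases after each start, and were searched on both strands for 5 short motifs. Each gene counted once, when any of its starts had a match. TGATGCAA is a composite site of ATF4, the factor translated when AAs are scarce. It was present in 1 of the 38 (BCAT1), or 2.63%, against 1.08% of 27305 genes with promoters. The E-box CACGTG was in 4 (PDHB, BCAT1, MCCC1 and MCCC2), or 10.5% against 8.77%. GCATGCGC, the core of the site of NRF1, a regulator of nuclear genes for mitochondria, was in 4 (DLD, SDHB, SDHD and BCKDHB), or 10.5% against 3.68%. The ETS motif CCGGAAG was in 6 (IDH3B, IDH3G, DLST, SDHB, SDHD and MDH2), or 15.8% against 12.2%. TCAAGGTCA, the site of the ERR nuclear receptors, was in 1 (SDHD), or 2.63% against 0.432%. No match overlapped that of another motif, and in SDHD the NRF1 core was read on both strands in overlapping letters. These are matches of letters and not sites of binding.

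Parts of 4 promoters are printed 5′ to 3′ on the strand of the gene, with the motif matches in capitals. BCAT1 is shown because it was one of the 2 members higher with starvation and holds the ATF4 composite, MCCC2 because it rose with glutamine and holds an E-box, and SDHB and SDHD because these subunits of one enzyme both hold the NRF1 core and the ETS motif. The BCAT1 stretch is chr12:24949102-24949189 (minus strand), the MCCC2 stretch chr5:71587237-71587322 (plus strand), the SDHB stretch chr1:17054114-17054272 (minus strand) and the SDHD stretch chr11:112086723-112086842 (plus strand).
BCAT1: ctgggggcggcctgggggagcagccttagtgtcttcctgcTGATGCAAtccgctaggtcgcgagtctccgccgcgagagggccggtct
MCCC2: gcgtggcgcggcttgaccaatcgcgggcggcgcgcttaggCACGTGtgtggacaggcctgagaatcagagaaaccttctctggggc
SDHB: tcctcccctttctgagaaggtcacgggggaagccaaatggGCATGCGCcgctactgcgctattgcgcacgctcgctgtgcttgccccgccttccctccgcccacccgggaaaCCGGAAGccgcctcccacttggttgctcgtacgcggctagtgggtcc
SDHD: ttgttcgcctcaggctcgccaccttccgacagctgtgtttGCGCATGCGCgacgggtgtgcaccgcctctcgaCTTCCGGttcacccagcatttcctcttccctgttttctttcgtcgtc
In BCAT1 the ATF4 composite began at position -48 from the RefSeq start, and in MCCC2 the E-box began at -63. In SDHB the NRF1 core began at -200 and the ETS motif at -128. In SDHD the cores began at -110 and -108, and the ETS motif, read on the opposite strand, at -77.

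The pyruvate dehydrogenase complex turns pyruvate into acetyl-CoA. PDHB, the beta subunit of its decarboxylase (chromosome 3, 58427630 to 58433857, minus strand, hg38), stood at 263, 218 and 211 normalized counts in the Ars libraries, at 171, 122 and 105 in the starved libraries and at 189, 185 and 199 with glutamine. The starved libraries lay below all others, and the glutamine libraries lay below all Ars libraries. PDHB fell by 0.82 on the log2 scale with starvation (SE 0.16, adjusted p = 0.000213). With glutamine its log2 fold change was 0.55 (adjusted p = 0.0134), under the 1.5-fold minimum. PDHA1, the alpha subunit, overlapped between groups, with 103 to 138 normalized counts in Ars, 85.6 to 143 in starved and 106 to 137 in glutamine-recovered libraries. DLAT, the acetyltransferase of the complex, fell by 0.60 with starvation (SE 0.13, adjusted p = 0.000605), a call that stood in 18 of 22 alternative analyses and was lost without Ars replicate 1 and without EBSS+VBL+Ars replicate 1.

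DLD, the lipoamide dehydrogenase that pyruvate, alpha-ketoglutarate and branched-chain dehydrogenases share, had 116, 76.4 and 112 normalized counts in Ars libraries and 98.8, 66.4 and 57.5 in starved libraries, which overlapped (log2 fold change -0.46, adjusted p = 0.0525). The 3 glutamine libraries, at 120.1, 114 and 112, lay above all 3 starved ones. DLD rose by 0.67 with glutamine (SE 0.20, adjusted p = 0.0162). It lost this call without EBSS+VBL+Ars replicate 2, without EBSS+VBL+Ars replicate 3 and without EBSS+VBL+Gln+Ars replicate 1.

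**Figure D2:**
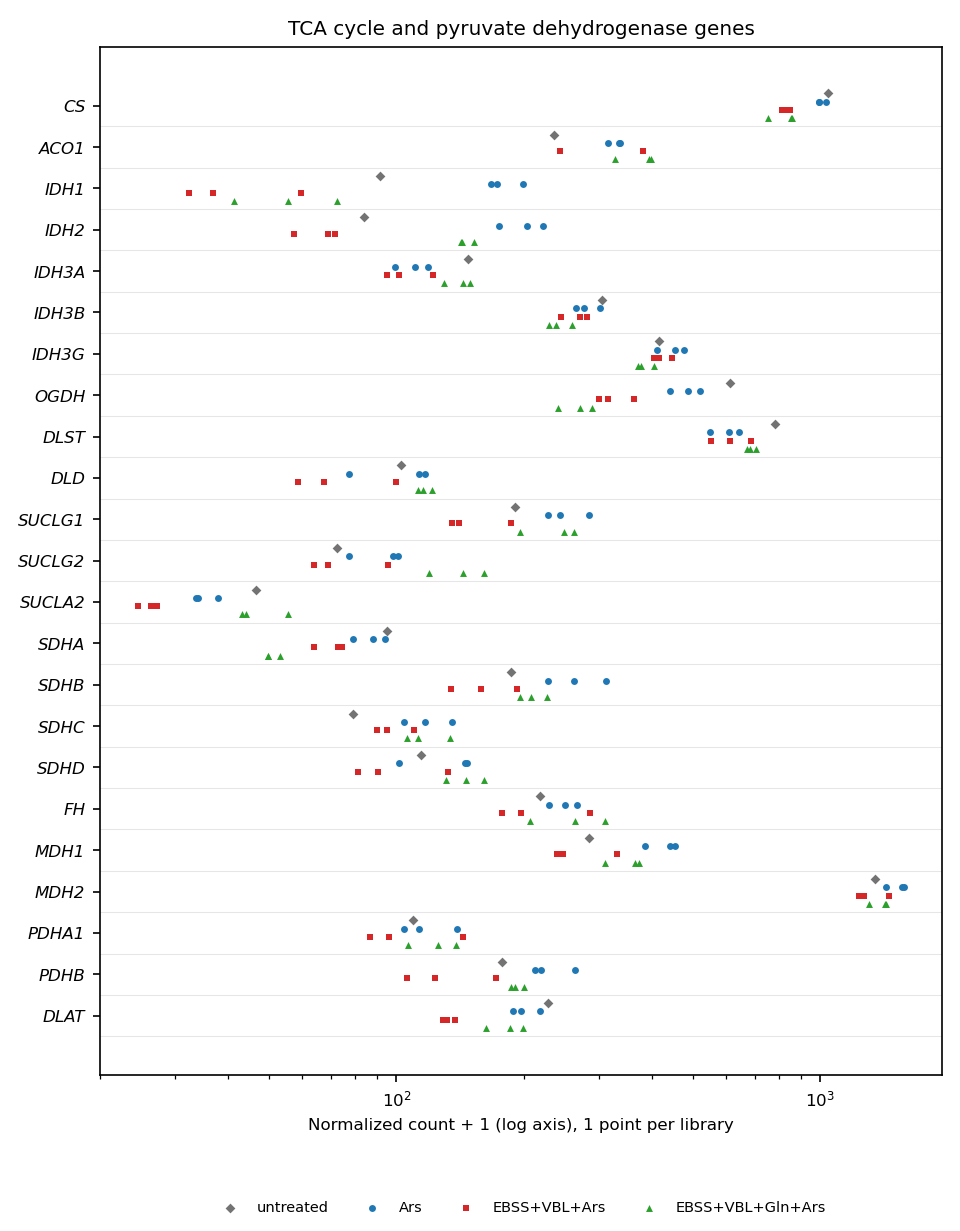
Normalized counts + 1 (log axis) of the 23 TCA and pyruvate dehydrogenase genes, with 1 point per library for untreated (grey diamonds), Ars (blue circles), EBSS+VBL+Ars (red squares) and EBSS+VBL+Gln+Ars cells (green triangles). The red squares of IDH1 and IDH2 lie below 60 and 71 normalized counts, left of all blue circles, and most other genes show shorter shifts between groups.

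Neither gene listed for the first steps of the cycle was called in any comparison of replicated groups. CS, citrate synthase, had 993 to 1030 normalized counts in Ars, 810 to 846 in starved and 752 to 858 in glutamine-recovered libraries. Both treated groups lay below all Ars libraries, with a log2 fold change of -0.27 with starvation (adjusted p = 0.0225) that did not reach 1.5-fold. ACO1, the cytosolic aconitase that also acts as an iron sensor, ranged from 242 to 382 normalized counts in starved libraries and overlapped the 314 to 336 of Ars libraries.

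The NADP-dependent isocitrate dehydrogenases had the largest falls of the cycle. IDH2, the mitochondrial NADP-dependent enzyme (chromosome 15, 90083045 to 90102477, minus strand), had 221, 202 and 174 normalized counts in Ars libraries, 70.8, 68.1 and 56.3 in starved libraries and 141, 142 and 151 with glutamine. No groups overlapped, and the glutamine libraries lay between the other two. IDH2 fell by 1.60 with starvation (SE 0.14, adjusted p = 2.42e-08), or 3.02-fold, and rose by 1.15 with glutamine (SE 0.14, adjusted p = 2.31e-05), or 2.21-fold. Both calls stood in all 22 alternative analyses. Against Ars cells the glutamine-recovered cells had a log2 fold change of -0.45 (adjusted p = 0.0161), under 1.5-fold.

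IDH1, the cytosolic NADP-dependent enzyme (chromosome 2, 208236229 to 208266074, minus strand), had 171, 166 and 198 normalized counts in Ars libraries. In starved libraries it had 35.9, 31.4 and 58.6, and with glutamine 71.4, 54.4 and 40.4. Starved and glutamine-recovered libraries overlapped, and both groups lay below all Ars libraries. IDH1 fell by 2.11 with starvation (SE 0.22, adjusted p = 2.17e-07), or 4.31-fold, the largest change among the 41 genes tested. The log2 fold change with glutamine was 0.41 (SE 0.22, adjusted p = 0.184), and IDH1 remained lower in glutamine-recovered than in Ars cells by a log2 fold change of -1.70 (SE 0.22, adjusted p = 5.43e-06). Per kilobase of transcript, IDH1 and IDH2 had mean levels in Ars cells of 77.0 and 74.8 normalized counts, and with glutamine they had 23.9 and 54.4.

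None of the 3 subunits of the NAD-dependent isocitrate dehydrogenase was called in any of the 3 comparisons of replicated groups. IDH3A, the catalytic subunit, had 98.1 to 117 normalized counts in Ars, 94.3 to 121 in starved and 128 to 148 in glutamine-recovered libraries, with log2 fold changes of -0.05 and 0.41 (adjusted p = 0.804 and 0.0425). IDH3B and IDH3G had log2 fold changes of -0.08 each with starvation (adjusted p = 0.563 and 0.537) and of -0.13 and -0.14 with glutamine. Exons of IDH3A share 38.8% of their bases with genes on the opposite strand, and whether counting used strand is not given in the sources used here.

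OGDH, the decarboxylase that oxidizes alpha-ketoglutarate, had 487, 519 and 442 normalized counts in Ars libraries, 314, 300.3 and 363 in starved libraries and 239, 270.0 and 288 with glutamine. The 3 groups did not overlap and were in descending order, with the untreated library highest at 612. Its log2 fold change of -0.57 with starvation (SE 0.12, adjusted p = 0.000495) was just under 1.5-fold, and it passed that minimum in 6 of the 22 alternatives, and in 1 more that sets no minimum. In glutamine-recovered cells OGDH was lower than in Ars cells by a log2 fold change of -0.86 (SE 0.12, adjusted p = 9.12e-06), in all 22 alternatives. DLST, the succinyltransferase of the same complex, had 548 to 641 normalized counts in Ars, 551 to 685 in starved and 671 to 706 in glutamine-recovered libraries (log2 fold changes 0.04 and 0.16).

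Succinyl-CoA synthetase pairs a shared alpha subunit, SUCLG1, with a beta subunit that makes GTP (SUCLG2) or ATP (SUCLA2), and all 3 were higher with glutamine. SUCLG1 had 284, 227 and 242 normalized counts in Ars libraries, 185, 134 and 139 in starved libraries and 261, 195 and 248 with glutamine. The starved libraries lay below all Ars and glutamine libraries, which overlapped. SUCLG1 fell by 0.72 with starvation (SE 0.15, adjusted p = 0.00047) and rose by 0.62 with glutamine (SE 0.15, adjusted p = 0.00516).

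SUCLG2 had 99.9, 76.4 and 97.3 normalized counts in Ars libraries, 94.3, 68.1 and 63.0 in starved libraries and 143, 119 and 160 with glutamine. Ars and starved libraries overlapped, and the glutamine libraries lay above both. SUCLG2 rose by 0.90 with glutamine (SE 0.18, adjusted p = 0.00112) and was also higher than in Ars cells, by 0.62 (adjusted p = 0.00857), a call against Ars that stood in 17 of 22 alternatives and was lost without Ars replicate 2, without EBSS+VBL+Gln+Ars replicate 3, with quantile normalization, with the GC trend removed and with replicates 1 and 2 only. SUCLA2 had 33.1, 32.6 and 36.9 in Ars libraries, 23.6, 26.2 and 25.4 in starved libraries and 42.2, 54.4 and 43.2 with glutamine, with no overlap between groups. SUCLA2 rose by 0.86 with glutamine (SE 0.21, adjusted p = 0.00488), and its log2 fold change with starvation was -0.43 (adjusted p = 0.0848). SUCLG1 lost its glutamine call without any one of 4 libraries (EBSS+VBL+Ars replicates 2 and 3, EBSS+VBL+Gln+Ars replicates 1 and 3), whereas SUCLG2 and SUCLA2 kept their glutamine calls, against starved cells, whichever library was left out.

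Succinate dehydrogenase, complex II of the respiratory chain, has 4 subunits. SDHB, its iron-sulfur subunit (chromosome 1, 17018664 to 17054032, minus strand), had 312, 227 and 262 normalized counts in Ars libraries, 192, 157 and 134 in starved libraries and 226, 207 and 195 with glutamine. No groups overlapped. SDHB fell by 0.73 with starvation (SE 0.15, adjusted p = 0.00036) in all 22 alternatives, and its log2 fold change with glutamine was 0.39 (adjusted p = 0.0557).

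SDHA, the flavoprotein that oxidizes succinate, had 87.1, 93.2 and 78.0 normalized counts in Ars libraries, 71.9, 73.3 and 63.0 in starved libraries and 48.7, 52.3 and 48.7 with glutamine. Groups did not overlap and were in descending order, the same order as for OGDH. SDHA was lower in glutamine-recovered than in Ars cells by a log2 fold change of -0.77 (SE 0.16, adjusted p = 0.000733), in all 22 alternatives, while the steps between neighbouring groups, -0.31 (adjusted p = 0.118) and -0.47 (adjusted p = 0.0385), did not reach 1.5-fold. SDHC and SDHD, the membrane anchors, overlapped between Ars and starved libraries, with log2 fold changes of -0.27 and -0.39. SDHA, SDHC and SDHD each have at least 4 annotated pseudogenes, and 21.7% of exonic bases of SDHA are shared with another gene on its strand that had at most 1.75 normalized counts, and reads that such copies share make their counts uncertain.

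FH, fumarase, overlapped between all groups (177 to 310 normalized counts over the 9 libraries). MDH1, the cytosolic malate dehydrogenase, had 453, 385 and 440 normalized counts in Ars libraries, 331, 246 and 239 in starved libraries and 365, 309 and 372 with glutamine. The starved libraries lay below all Ars libraries, and one of them was inside the range with glutamine. MDH1 fell by 0.66 with starvation (SE 0.13, adjusted p = 0.000369), a call lost without EBSS+VBL+Ars replicate 3 and with the GC trend removed. MDH2, its mitochondrial counterpart and per kilobase the most abundant of the 42 genes in Ars cells, had 1430 to 1574 normalized counts in Ars, 1235 to 1455 in starved and 1300 to 1433 in glutamine-recovered libraries, with a log2 fold change of -0.21 with starvation (adjusted p = 0.0919).

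Both branched-chain aminotransferases were called with starvation, in opposite directions. BCAT1, the cytosolic enzyme (chromosome 12, 24810024 to 24949101, minus strand), had 293, 245 and 272 normalized counts in Ars libraries, 465, 410 and 387 in starved libraries and 514, 525 and 590 with glutamine. No groups overlapped, and the order was ascending. BCAT1 was higher in starved than in Ars cells by 0.64 (SE 0.12, adjusted p = 0.000115) and in glutamine-recovered than in Ars cells by 1.01 (SE 0.12, adjusted p = 9.48e-07), or 2.01-fold. The first of these calls was lost with libraries rescaled to equal totals, with quantile normalization, without Ars replicate 2 and without EBSS+VBL+Ars replicate 1, while the second stood in all 22 alternatives. The step with glutamine, 0.37 (adjusted p = 0.0223), was under 1.5-fold.

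BCAT2, the mitochondrial aminotransferase (chromosome 19, 48795062 to 48811029, minus strand), had 195, 207 and 220 normalized counts in Ars libraries, 119, 114 and 130 in starved libraries and 198, 214 and 183 with glutamine. The starved libraries lay below all others, and Ars and glutamine libraries overlapped. BCAT2 fell by 0.77 with starvation (SE 0.13, adjusted p = 3.85e-05) and rose by 0.71 with glutamine (SE 0.13, adjusted p = 0.000504), both in all 22 alternatives. Its log2 fold change between glutamine-recovered and Ars cells was -0.06 (SE 0.13, adjusted p = 0.713).

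The branched-chain ketoacid dehydrogenase commits the carbon to oxidation, and its genes had low counts. BCKDHA, the alpha subunit of its decarboxylase, had 0 to 2.70 normalized counts in Ars, 3.32 to 3.49 in starved and 0 to 6.53 in glutamine-recovered libraries and was not tested. In the annotation used here 73.7% of its exonic bases are shared with a readthrough gene on the same strand, which was listed at 0 in every library. What that overlap did to the count was not tested. BCKDHB, the beta subunit, had 16.9, 15.8 and 15.1 normalized counts in Ars libraries, 10.1, 12.2 and 8.84 in starved libraries and 18.4, 18.5 and 17.1 with glutamine. The groups did not overlap, but neither step was called (log2 fold change -0.58, SE 0.29, adjusted p = 0.0933 and 0.75, SE 0.29, adjusted p = 0.0581). DBT, the acyltransferase, had 11.2 to 16.8 normalized counts in Ars, 10.5 to 24.7 in starved and 22.7 to 31.5 in glutamine-recovered libraries, and was called higher in glutamine-recovered than in Ars cells (0.92, SE 0.32, adjusted p = 0.0231), a call lost without Ars replicate 2, without EBSS+VBL+Gln+Ars replicate 2 and without EBSS+VBL+Gln+Ars replicate 3.

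**Figure D3:**
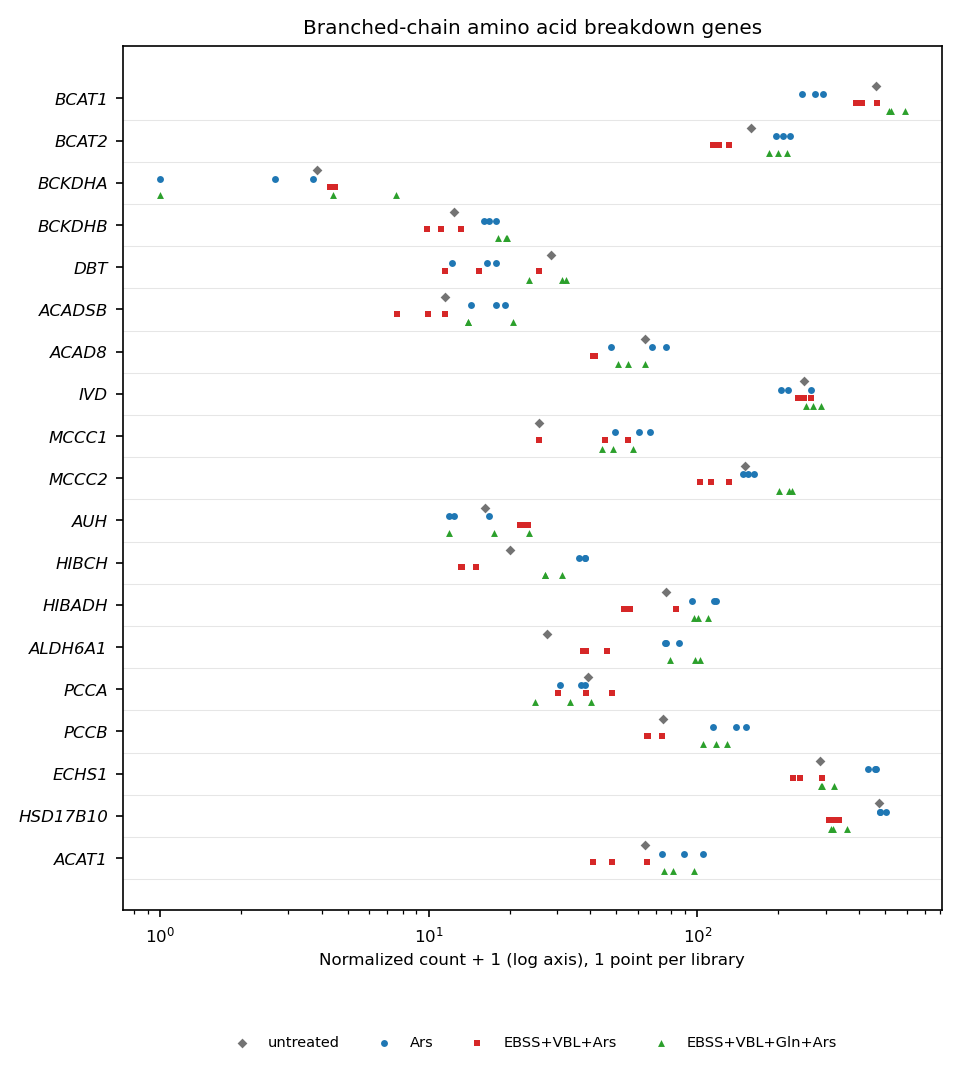
Normalized counts + 1 (log axis) of the 19 branched-chain breakdown genes, with 1 point per library and the groups marked as untreated (grey diamonds), Ars (blue circles), EBSS+VBL+Ars (red squares) and EBSS+VBL+Gln+Ars (green triangles). For BCAT2, HIBCH, ALDH6A1 and PCCB the red squares lie left of all blue circles and green triangles, and for BCAT1 the blue circles lie left of both.

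The remaining genes are ordered by the amino acid they break down, an order chosen after their values were seen, so that no difference between routes is read from it. ECHS1 and ACAT1 also serve other pathways. In valine breakdown ACAD8 opens the route, ECHS1 hydrates its product, HIBCH frees hydroxyisobutyrate from coenzyme A, HIBADH oxidizes it and ALDH6A1 forms propionyl-CoA. HIBCH (chromosome 2, 190189735 to 190344193, minus strand) had 37.1, 37.3 and 35.2 normalized counts in Ars libraries, 12.4, 14.0 and 12.2 in starved libraries and 30.3, 26.1 and 26.0 with glutamine. No groups overlapped, and the glutamine libraries lay between the other two. HIBCH fell by 1.44 with starvation (SE 0.23, adjusted p = 3.56e-05), or 2.72-fold, and rose by 1.04 with glutamine (SE 0.23, adjusted p = 0.00294).

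ALDH6A1 (chromosome 14, 74056847 to 74084492, minus strand) had 84.4, 74.5 and 75.5 normalized counts in Ars libraries, 44.9, 36.7 and 37.6 in starved libraries and 77.9, 101 and 97.3 with glutamine. Starved libraries lay below all Ars and glutamine libraries, which overlapped each other. ALDH6A1 fell by 0.96 with starvation (SE 0.17, adjusted p = 0.000102) and rose by 1.19 with glutamine (SE 0.17, adjusted p = 8.07e-05), the largest rise with glutamine among the 41 genes, and both calls stood in all 22 alternatives. HIBADH fell by 0.80 (adjusted p = 0.000817) and rose by 0.70 with glutamine (adjusted p = 0.0067), the latter lost without EBSS+VBL+Ars replicate 2.

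ECHS1, which also hydrates fatty acid intermediates, had 460, 429 and 457 normalized counts in Ars libraries, 289, 225 and 240 in starved libraries and 321, 291 and 288 with glutamine. Both treated groups lay below all Ars libraries and overlapped each other by a narrow margin. ECHS1 fell by 0.84 with starvation (SE 0.12, adjusted p = 6.48e-06), the smallest p of the branched-chain genes, in all 22 alternatives. Its log2 fold change with glutamine was 0.26 (SE 0.12, adjusted p = 0.102). ACAD8 fell by 0.61 with starvation (SE 0.20, adjusted p = 0.0143), in 17 of 22 alternatives, and was lost without Ars replicate 1 and without Ars replicate 3.

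HSD17B10, a dehydrogenase of the isoleucine route that is also part of mitochondrial RNase P, had 477, 503 and 477 normalized counts in Ars libraries, 318, 309 and 335 in starved libraries and 314, 360 and 317 with glutamine. Both treated groups lay below all Ars libraries and overlapped each other. HSD17B10 fell by 0.60 with starvation (SE 0.11, adjusted p = 9.86e-05), only just past 1.5-fold, and lost the call without Ars replicate 2 and without EBSS+VBL+Ars replicate 2. Its log2 fold change with glutamine was 0.04 (SE 0.11, adjusted p = 0.80).

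ACAT1, the thiolase that ends the isoleucine route, fell by 0.81 (SE 0.20, adjusted p = 0.00175) and rose by 0.74 with glutamine (SE 0.20, adjusted p = 0.00907), the latter lost without EBSS+VBL+Ars replicate 3 and without EBSS+VBL+Gln+Ars replicate 1. ACADSB, which opens the route, had only 6.63 to 19.6 normalized counts over the 9 libraries. It fell by 0.83 with starvation (SE 0.32, adjusted p = 0.035) in 13 of 22 alternatives, and the call was lost without Ars replicate 1, without Ars replicate 2 and without EBSS+VBL+Ars replicate 3.

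For leucine, IVD, isovaleryl-CoA dehydrogenase, had 205 to 263 normalized counts in Ars, 236 to 264 in starved and 253 to 287 in glutamine-recovered libraries, with log2 fold changes of 0.14 (adjusted p = 0.358) and 0.11 (adjusted p = 0.539). Methylcrotonyl-CoA carboxylase joins the biotin-carrying subunit MCCC1 to MCCC2. MCCC2 (chromosome 5, 71579531 to 71658706, plus strand) had 147, 153 and 162 normalized counts in Ars libraries, 130, 112 and 102 in starved libraries and 200.2, 219 and 224 with glutamine, with no overlap. MCCC2 rose by 0.90 with glutamine (SE 0.13, adjusted p = 9.0e-05) in all 22 alternatives, while its log2 fold changes of -0.43 with starvation (adjusted p = 0.0099) and 0.47 against Ars cells (adjusted p = 0.00678) were under 1.5-fold. MCCC2 was called lower with starvation in 2 of 22 alternatives, equal totals and no minimum fold. MCCC1 was called lower in 3, equal totals, without Ars replicate 2 and without EBSS+VBL+Ars replicate 2.

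MCCC1 had 59.4, 48.4 and 65.4 normalized counts in Ars libraries, 24.7, 54.1 and 44.2 in starved libraries and 47.6, 56.6 and 43.2 with glutamine, so that all groups overlapped (log2 fold change with starvation -0.54, SE 0.24, adjusted p = 0.0657, and with glutamine 0.32, SE 0.24, adjusted p = 0.35). AUH, the hydratase of this route and an RNA-binding protein, was called higher with starvation at 0.75 (SE 0.31, adjusted p = 0.0443) from 10.9 to 15.8 normalized counts in Ars and 21.0 to 22.5 in starved libraries. This call stood in 11 of 22 alternatives and was lost without any one of 6 libraries, namely Ars replicates 1 and 3, EBSS+VBL+Ars replicates 1, 2 and 3 and EBSS+VBL+Gln+Ars replicate 3.

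Of the 2 subunits of propionyl-CoA carboxylase, which leads valine and isoleucine carbon toward succinyl-CoA, 1 was called. PCCB, its beta subunit (chromosome 3, 136250340 to 136337896, plus strand), had 151, 114 and 138 normalized counts in Ars libraries, 73.0, 64.6 and 64.1 in starved libraries and 128, 117 and 104 with glutamine. Starved libraries lay below all Ars and glutamine libraries. PCCB fell by 0.98 with starvation (SE 0.15, adjusted p = 2.50e-05) and rose by 0.78 with glutamine (SE 0.15, adjusted p = 0.00116), both in all 22 alternatives. PCCA, the biotin-carrying alpha subunit, had 29.7, 37.3 and 36.1 in Ars libraries, 29.2, 47.1 and 37.6 in starved libraries and 32.5, 39.2 and 24.0 with glutamine, and all groups overlapped (log2 fold changes 0.12, SE 0.24, and -0.25, SE 0.24). Exons of PCCB share 22.2% of their bases with genes on the opposite strand.

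Glutamine-recovered cells were also compared with Ars cells, which shows where the levels stood relative to arsenite alone. IDH1, OGDH and SDHA were lower and SUCLG2, BCAT1 and DBT were higher, that is, 3 TCA genes (13.0%) lower and 1 (4.35%) higher, and 0 branched-chain genes lower and 2 (11.1%) higher, against 15.3% of all genes lower and 16.5% higher. SUCLG2 and DBT were each called in 17 of 22 alternatives, and both lost the call without Ars replicate 2 and without EBSS+VBL+Gln+Ars replicate 3. Median log2 fold changes were -0.14 for TCA and pyruvate dehydrogenase genes, -0.08 for branched-chain genes and 0.02 for all genes. ECHS1 and HSD17B10 stayed just under the minimum fold, at -0.58 (adjusted p = 0.000525) and -0.56 (adjusted p = 0.000305), and ECHS1 passed it in some alternatives.

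Summed over their members, the TCA and pyruvate dehydrogenase genes came to 7709, 7417 and 7231 normalized counts in Ars libraries, 6549, 5607 and 5546 in starved libraries and 6670, 6515 and 6786 with glutamine. The group means were 7453 ± 241, 5901 ± 563 and 6657 ± 136 (SD, n = 3), and one starved library reached the range with glutamine. Branched-chain genes came to 2455 ± 45.6 in Ars, 1891 ± 104 in starved and 2494 ± 28.3 in glutamine-recovered cells (SD, n = 3), with the starved libraries below all others. The ratio of the first sum to the second was 3.04 ± 0.10 in Ars, 3.12 ± 0.12 in starved and 2.67 ± 0.08 in glutamine-recovered cells (SD, n = 3). Its lowest values were those of the 3 glutamine libraries, 2.58 to 2.74, against 2.93 to 3.26 in the 6 other replicated libraries and 3.13 in the untreated library. These sums are weighted toward abundant genes such as MDH2, CS, HSD17B10 and BCAT1. BCAT1 was lowest in Ars and highest in glutamine-recovered libraries, without overlap, and so raises the branched-chain sum most with glutamine. The sums and the ratio without BCAT1 were not computed, and no shift between the pathways is read from the ratio.

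**Figure D4:**
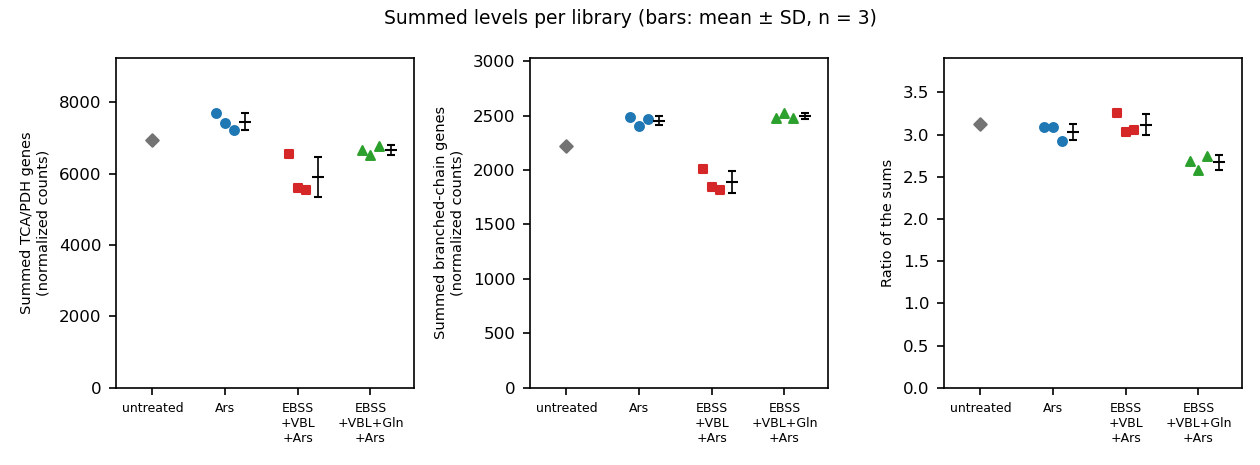
Summed normalized counts of the 23 TCA and pyruvate dehydrogenase genes (left) and of the 19 branched-chain genes (middle), and their ratio (right), by library, with the mean ± SD of 3 libraries beside each replicated group and axes from 0. Branched-chain sums of starved cells (mean 1891) lie below those of Ars (2455) and glutamine-recovered cells (2494). The ratio is lowest with glutamine (2.67), where BCAT1, part of the branched-chain sum, was highest.

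Log2 fold changes with glutamine were related to transcript GC content, and the members are somewhat poorer in GC than other genes. Median GC content was 46.0% for TCA and pyruvate dehydrogenase genes, 44.7% for branched-chain genes and 49.6% for all genes tested. Pearson's r between GC content and the log2 fold change with glutamine was -0.39 over 12960 genes and -0.45 over the 41 members, as a description across genes, which share the libraries and are not independent. For starvation r was 0.07 and 0.00. After each library's trend with GC content was removed, 2 of 23 TCA genes, IDH2 and SUCLG2, were still higher with glutamine. So were 5 of 18 branched-chain genes (BCAT2, MCCC2, HIBCH, ALDH6A1 and PCCB). Of all 12960 genes tested, 888 were then higher and 793 lower, so the TCA share was near that of all genes. DLD, SUCLG1, SUCLA2, HIBADH and ACAT1 were no longer called. With starvation the same correction gave 6 of 23 TCA genes lower, as MDH1 and DLAT lost their calls and OGDH gained one. Of 18 branched-chain genes, 10 were lower and 2 higher. Of all 12960 genes, 2741 were lower and 2806 higher.

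**Figure D5:**
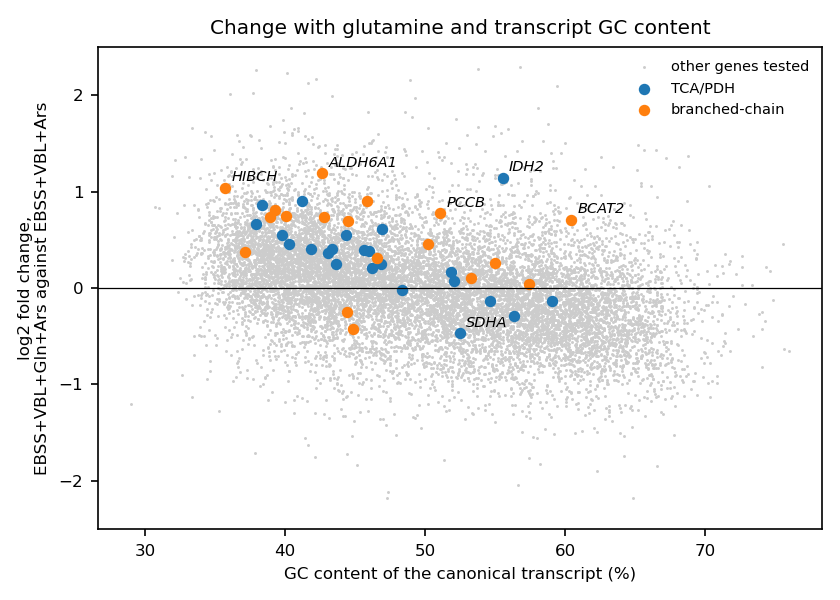
Log2 fold change of EBSS+VBL+Gln+Ars against EBSS+VBL+Ars by the GC content of each gene's canonical transcript (%), for all genes tested (grey), TCA and pyruvate dehydrogenase genes (blue) and branched-chain genes (orange), with 5 genes outside the vertical range. Most members lie left of 50% and above 0, and BCAT2 (60.4% GC) and IDH2 (55.5% GC) are high although rich in GC.

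Scaling also bears on the counts. When all libraries were given the same total, the log2 fold change of the median gene shifted by -0.18 for starvation and by 0.28 for glutamine, and all-gene calls became 2076 higher and 3617 lower with starvation and 2836 higher and 330 lower with glutamine. On that scale 10 TCA genes and 13 branched-chain genes were lower with starvation, with 0 higher in either, and BCAT1 and AUH were no longer called. With glutamine 13 TCA genes and 12 branched-chain genes were then higher and 0 lower.

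The untreated library has no replicate, and the 28 members whose mean reached 100 normalized counts over it and the Ars libraries were compared by ratio, with exact Poisson 95% intervals of the untreated reads that cover counting error only. Of these, 6 differed from the mean of the Ars libraries by at least 1.5-fold, 1 higher and 5 lower, against 18.4% of 6132 genes higher and 15.6% lower. IDH2 was at 82.7 normalized counts in untreated cells, 0.416 of the Ars mean (interval 0.333 to 0.513). IDH1 was at 90.3, a ratio of 0.506 (0.410 to 0.619), and PCCB at 73.2, a ratio of 0.546 (0.431 to 0.682). These values lay below all 3 Ars libraries of each gene. ECHS1 (0.636) and SDHC (0.662) were the other lower ones. BCAT1 was at 459, a ratio of 1.70 (1.55 to 1.86), above all Ars libraries and within the range of starved ones. IDH3A (1.35) and DLST (1.30) had the next highest ratios. The median ratio was 0.881 for 20 TCA and pyruvate dehydrogenase genes, 0.864 for 8 branched-chain genes and 1.01 for all genes compared.

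For the members lower in starved than in Ars cells, the untreated level was often nearer the starved one. Of the 17 such members, the untreated library lay below all 3 Ars libraries in 15 (88.2%), at or below the highest starved library in 7 (41.2%) and nearer the starved mean than the Ars mean in 12 (70.6%). Among them, the 7 TCA and pyruvate dehydrogenase genes gave 6 (85.7%), 2 (28.6%) and 4 (57.1%) in the same order. For all 2757 genes lower with starvation these shares were 67.6%, 25.1% and 40.5%. Some of these members have few reads in the untreated library, as ALDH6A1 at 26.6 normalized counts (95% Poisson interval 17.7 to 38.5, counting error only). Since only 1 untreated library exists here and the Ars libraries enter both comparisons, these shares describe the libraries and were not tested.

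Genes around these pathways were read from lists written with earlier results known, and their counts stand beside 21.5% of all genes higher and 21.3% lower with starvation and 8.45% higher and 8.52% lower with glutamine. Of 8 tested kinases and phosphatases that switch the pyruvate and branched-chain dehydrogenases off or on, 2 (25.0%) were higher and 2 (25.0%) lower with starvation, near the shares of all genes. PDPR, a regulator of pyruvate dehydrogenase phosphatase, rose by 0.83 (adjusted p = 8.57e-06), while the kinase gene PDK2 fell by 0.84 and the kinase gene PDK3 fell by 1.73. PDK1 was the 1 gene of this list called with glutamine, and it rose by 1.03 (adjusted p = 0.00166). Of 11 tested genes for lipoylation and assembly of these complexes, 4 (36.4%) were lower and 0 higher with starvation. BOLA3 and NFU1, iron-sulfur cluster factors needed to make lipoate, fell by 1.28 and by 1.35 (adjusted p = 5.16e-06 and 2.34e-05), and SDHAF3, an assembly factor of succinate dehydrogenase, fell by 1.71. With glutamine they rose by 0.90, 1.03 and 1.34 (adjusted p = 0.0011, 0.00153 and 0.00592), and 1 gene of this list, SDHAF2, was lower.

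Among 11 tested genes that bring carbon into or out of the cycle, 1 (9.09%) was higher and 3 (27.3%) were lower with starvation. PCK2, which makes phosphoenolpyruvate from oxaloacetate in mitochondria, rose by 1.87 (adjusted p = 2.11e-11), while malic enzyme ME1 fell by 2.08 (adjusted p = 5.25e-09) and OGDHL, a paralog of OGDH, by 0.86. With glutamine ME1 rose by 0.76 (adjusted p = 0.00272), and PC, pyruvate carboxylase, fell by 0.67 (adjusted p = 0.00114). Of 8 mitochondrial carriers 6 (75.0%) were lower with starvation, led by the citrate carrier SLC25A1 (-1.43), the oxoglutarate carrier SLC25A11 (-1.25) and the dicarboxylate carrier SLC25A10 (-1.33), and with glutamine MPC1, a subunit of the pyruvate carrier, was the 1 called, higher by 0.97 (adjusted p = 0.00294).

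Of 7 tested genes for later steps of propionate and leucine breakdown, 3 (42.9%) were lower with starvation, MMAB (-1.29) and MMACHC (-1.10), which process vitamin B12, and the ketone-using OXCT1 (-0.89), and these 3 were higher with glutamine by 1.33, 0.75 and 0.86. Of 4 tested transporters of branched-chain AAs, 3 (75.0%) rose with starvation, namely SLC7A5 by 2.06 (adjusted p = 1.18e-10), SLC43A1 by 1.76 and SLC3A2 by 1.27, and SLC43A2 fell by 1.74. With glutamine SLC7A5 fell by 0.84 (adjusted p = 0.000119) and SLC43A2 rose by 0.65 (adjusted p = 0.0392).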

How the data were processed

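RNA from 10 libraries was depleted of ribosomal RNA and sequenced as single reads. Per the labels and the methods of the study, STAR was used for alignment (hg38), HTSeq for counting and DESeq2 for normalization. Their versions, the annotation release and the strand setting are not given in the sources used here. As deposited, the signal is a normalized count for each gene and library, and replicates were not pooled. In every library 100% of values were whole multiples, within 0.01 reads, of the value of 1 read, so reads could be recovered.

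The limma test (a linear model with a trended empirical Bayes step) used log2(normalized count + 1) for genes whose mean reached 10 over the 9 replicated libraries. The 3 groups shared one estimate of the spread, without a replicate block. Tests were two-sided, and the test was tested on simulated data. The untreated library was described only, over genes with a mean of at least 100. Of 60671 IDs, 60401 matched GENCODE release 44, which gave coordinates, overlaps, and the GC content and length of canonical transcripts. Promoters came from RefSeq (GRCh38.p14). OGDH, SDHC, BCAT2 and HIBADH had none there.

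The genes, lists and tests were chosen with earlier results of these data known. Values by library are given for up to 5 called members with the smallest p in each group and comparison and for pairs of paralogs or subunits (others shown were added after their values were seen), and up to 3 genes from each further list, of which some are not reported here. Alternatives were pseudocounts of 0.5 and 5, no filter, a minimum mean of 50, quantile normalization, equal totals, a replicate block, a fit of the 2 groups compared alone, no minimum fold, the GC trend removed, recovered reads tested with edgeR or DESeq2, each library left out, and, added after seeing the data, replicates 1 and 2 only. Software was Python 3.11.15, matplotlib 3.10.9 and R 4.3.3 with DESeq2 1.42.0, edgeR 4.0.16 and limma 3.58.1.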

Additional observations from a re-analysis of the deposited data

How the results depend on the processing

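Counts of called members kept within 1.5 times their value under most alternatives, and no named member reversed. With glutamine against starvation, the 5 TCA and pyruvate dehydrogenase genes called became 13 with equal totals, 11 with no minimum fold, 2 with the GC trend removed and 2 with replicates 1 and 2 only, and the 7 branched-chain genes became 12 with equal totals and 4 with replicates 1 and 2 only. The cause was not tested. Between glutamine-recovered and Ars cells the 2 branched-chain genes called became 1 with a minimum mean of 50, which drops DBT, 5 with no minimum fold and 1 with replicates 1 and 2 only. Over all genes, the 5548 called with starvation became 3635 and the 4124 called between glutamine-recovered and Ars cells 2723 with a minimum mean of 50, as fewer genes were tested, and the 2201 called with glutamine became 3729 with no minimum fold and 977 with replicates 1 and 2 only.

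When 1 library was left out, genes called ranged from 5220 to 5821 with starvation, 1705 to 3012 with glutamine and 3809 to 4229 between glutamine-recovered and Ars cells. In the same order, TCA and pyruvate dehydrogenase genes ranged from 6 to 8, 3 to 8 and 3 to 4, and branched-chain genes from 9 to 12, 6 to 8 and 1 to 3. With glutamine, the 8 TCA genes came without EBSS+VBL+Ars replicate 1, and the 3 without EBSS+VBL+Ars replicate 2 or EBSS+VBL+Gln+Ars replicate 1. The 1 branched-chain gene came without EBSS+VBL+Gln+Ars replicate 3. Untreated against Ars gave 6 to 7 members.

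Libraries that share a replicate number were not taken as pairs, since the correlation of their deviations from group means was -0.06 to 0.31 and over 0.1 in 4 of 9 such pairs, against -0.31 to 0.21 in 18 pairs of different numbers. With the replicate number as a block, 5634, 2385 and 4223 genes were called, with 7, 5 and 4 TCA and 12, 8 and 2 branched-chain genes. On recovered reads edgeR called 5607, 2134 and 4321 genes and DESeq2 5325, 1887 and 3988. Depth limits the low genes, such as HIBCH, BCKDHB, DBT, ACADSB and AUH, whose means are under 30 normalized counts, and BCKDHA could not be tested.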
